A study of Mus musculus with 6 samples.

Results

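The junction genes described here are the cadherins, claudins, tight junction proteins and connexins of MIN6 cells, a mouse pancreatic β-cell line that came from an insulinoma. They were taken by symbol (Cdh, Cldn or Tjp with a digit, or Gja, Gjb, Gjc or Gjd with a digit), with *Lad1* and *Epcam* added, and number 57 of the 16640 genes in the files. Of these, 23 are cadherins, 19 are claudins, 10 are connexins and 3 are tight junction proteins. RNA of cells in which the endogenous *Thada* gene was activated was compared with RNA of control cells, with 3 libraries per condition. Control cells had received lentiviruses for dCas9 and a non-targeting sgRNA. *Thada*-activated cells had received a dCas9-VP64 lentivirus, were selected with puromycin, then received an sgRNA-MS2-P65-HSF1 lentivirus aimed at the *Thada* promoter and were selected with G418. The study describes them as a stable line and names no clone, and whether control cells went through the same selection is not given in the sources used here. Library totals, in the order of replicates 1 to 3, were 17272834, 17166511 and 17689611 for control and 17727004, 17385036 and 17224631 for *Thada*-activated cells. Values per library follow this order throughout. Values are given as CPM, which are counts scaled to the library total, and levels of different genes are compared only in FPKM, which also divides by gene length.

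In each condition the replicate 3 library lay far from the other libraries, so each comparison of conditions is given with that in view. The study says in general that its cell experiments were repeated independently, but no label says which cultures the libraries came from, so p-values are read as measuring the spread between these libraries. *Thada* itself, the targeted gene, had CPM values of 27.7, 29.0 and 16.96 in the control libraries and of 57.4, 56.2 and 50.2 in the *Thada*-activated libraries. Every *Thada*-activated library was above every control library, which fits the labels. In edgeR its log2 fold change was 1.13 without a block (adjusted p = 1) and 1.15 with the replicate number as a block (adjusted p = 0.00041), and DESeq2 gave an adjusted p of 0.0185 without a block.

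Cadherins are calcium-dependent adhesion molecules that join neighbouring cells at adherens junctions through catenins. Claudins seal tight junctions, where the TJP (ZO) scaffold proteins tie them to actin, and connexins form the channels of gap junctions. In islets, connexin 36, the product of *Gjd2*, couples β cells electrically, and E-cadherin and N-cadherin hold islet cells together.

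A mean of 1 CPM or more over the 6 libraries was reached by 23 of the 57 genes. These included 13 cadherins, 4 claudins, 1 connexin, *Lad1* and *Epcam*. The other 34 genes (10 cadherins, 15 claudins and 9 connexins) lay under 1 CPM, and 20 of them had at most 3 counts in every library, a level taken as the floor. Among the 34, *Cldn11*, an oligodendrocyte and Sertoli cell claudin, had 14 to 21 counts per library. *Cldn3*, *Cdh10*, *Gjc3*, *Cdh15* and *Cdh17* were the other genes under 1 CPM with more than 3 counts in each library. *Gja1*, the gene of the widespread connexin 43, was listed at 1 count in control replicate 3 and at 0 in the other libraries, and *Cdh5*, the cadherin of endothelial cells, at 1 count in control replicate 1 only.

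Among cadherins, *Cdh2* (N-cadherin) had the highest mean level per length, with 38.7 FPKM, followed by *Cdh22* with 29.6 FPKM, *Cdh4* (R-cadherin) with 21.6 FPKM and *Cdh8* with 16.9 FPKM. In the replicate 3 libraries (control, then *Thada*-activated) the order was another, as *Cdh22* (32.6 and 33.4 FPKM) was above *Cdh2* (29.8 and 31.8 FPKM), and *Cdh8* (18.6 and 17.3 FPKM) above *Cdh4* (13.0 and 15.2 FPKM). *Cdh1* (E-cadherin) had a mean of 2.27 FPKM, so its level per length was far below that of *Cdh2* in these cells. *Gjd2* had a mean of 19.8 FPKM and was the only connexin of the 10 above 1 CPM. *Tjp1* (ZO-1) had a mean of 17.1 FPKM and *Tjp3* (ZO-3) one of 1.52 FPKM. The leading claudins were *Cldn12* with 15.3 FPKM and *Cldn1* with 9.48 FPKM. *Cldn34c1* had 3.90 FPKM, but it lies on the X chromosome beside the near copies *Cldn34c2* and *Cldn34c3* and its estimated counts were fractional in 5 libraries, so its level is uncertain. *Cdh11* and *Gjc3* also had fractional counts in all 6 libraries.

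**Figure D1:**
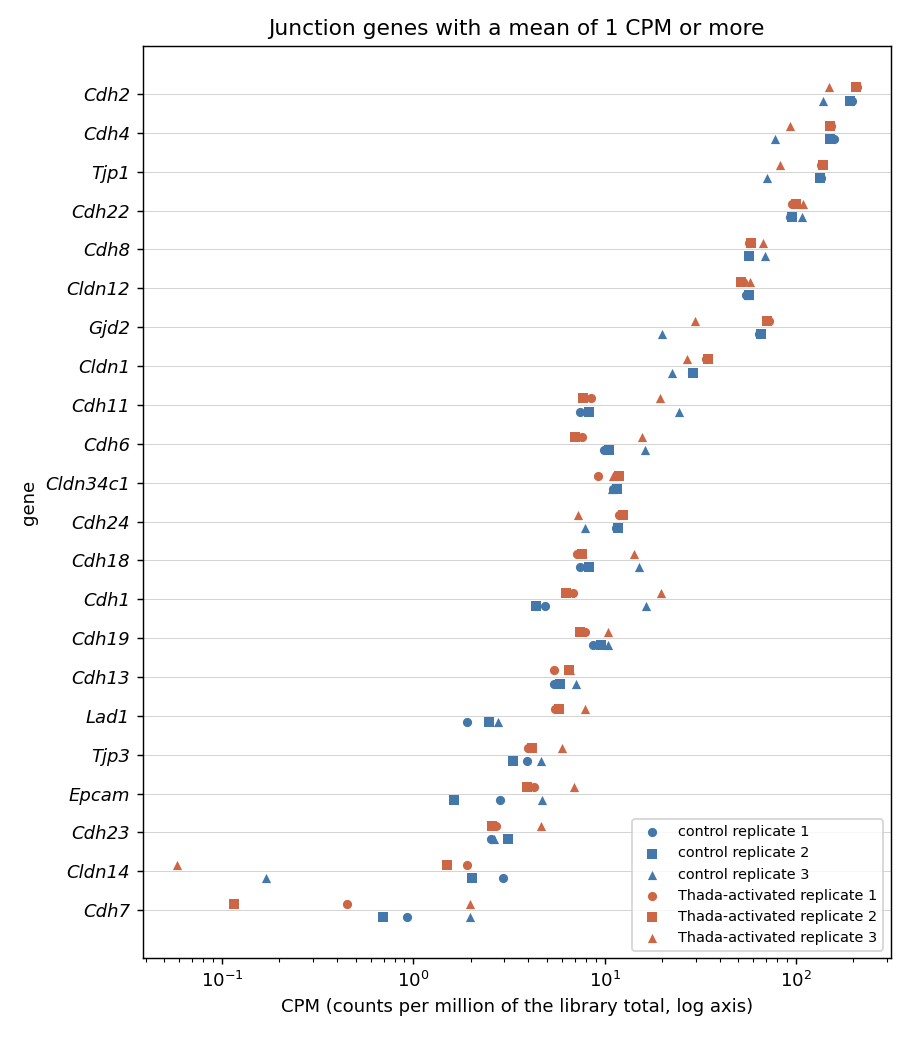
Counts scaled to the library total (CPM, log axis) for 22 junction genes with a mean of 1 CPM or more; each point is 1 library, colour gives the condition and shape the replicate number. *Lad1* is the gene whose 3 control points (1.91 to 2.77 CPM) all lie below its 3 *Thada*-activated points (5.53 to 7.95 CPM), while for *Cdh1* and *Gjd2* the replicate 3 points lie apart from the others.

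Between conditions, *Lad1* was the only junction gene called with all 6 libraries, and only in some of the fits. Without both replicate 3 libraries, *Epcam* was called as well. *Lad1* encodes ladinin 1, a protein first described in the basement membrane zone of skin, and lies on chromosome 1 of GRCm38 from 135818598 to 135833342 on the plus strand. Its CPM values were 1.91, 2.50 and 2.77 for control and 5.53, 5.81 and 7.95 for *Thada*-activated cells. The conditions did not overlap, and the level was higher in the *Thada*-activated library of each of the 3 pairs with the same number. Mean CPM was 2.40 ± 0.44 for control and 6.43 ± 1.33 after activation (SD, n = 3; two-sided p = 0.1 by exact permutation, which is the lowest value 3 against 3 libraries can give). In bulk RNA, more cells with a transcript and more of it per cell cannot be told apart. Without a block, the quasi-likelihood test of edgeR estimated a log2 fold change of 1.40 (standard error 0.25) whose adjusted p was 1. With the replicate number as a block it was 1.40 (standard error 0.17, adjusted p = 0.00452), a 2.63-fold difference. DESeq2 called *Lad1* without a block as well (adjusted p = 0.0126).

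Called genes are those that changed over 1.5-fold and had an adjusted p under 0.05. Without a block edgeR called 0 of the 27 junction genes it could test, and 0 of all 12516 tested genes (0%). At an unadjusted p under 0.05 there were 1 junction gene and 101 genes in all. With the replicate block, edgeR called 1 of the 27 (*Lad1*), beside 19 of all genes (0.152%), and still only *Lad1* when the fold threshold was dropped (28 of all genes, 0.224%). DESeq2 without a block also called 1, beside 5 of all genes (0.0301%). Without both replicate 3 libraries, an alternative chosen after seeing the data, edgeR called 2 junction genes, *Lad1* and *Epcam*, beside 68 of all genes (0.545%). The 27 junction genes had a median log2 fold change of 0.02 in the fit without a block, and the median of all tested genes was 0.00.

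*Epcam*, the epithelial cell adhesion molecule gene (chromosome 17, 87635979 to 87651129, plus strand), had CPM values of 2.84, 1.63 and 4.69 in control and of 4.29, 3.91 and 6.91 in *Thada*-activated libraries. The conditions overlapped, because control replicate 3 was above *Thada*-activated replicates 1 and 2, but each pair with the same number was higher in the *Thada*-activated library. Its log2 fold change was 0.69 (standard error 0.44, adjusted p = 1 in edgeR) without a block and 0.72 (standard error 0.19, adjusted p = 0.199) with it, so it was not called with all 6 libraries. With 1 library left out of the fit without a block it was 0.39 without control replicate 2, 0.41 without *Thada*-activated replicate 3 and 1.15 without control replicate 3, and it was not called in any of these. Without both replicate 3 libraries it was 0.86 (adjusted p = 0.0157 in edgeR), so its size and its call rest on which libraries are used.

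*Cldn1*, a sealing claudin of many epithelia, had 28.6, 28.8 and 22.6 CPM in control libraries, against 33.8, 34.9 and 26.8 CPM after activation. The conditions overlapped because the replicate 3 libraries were lower. Each pair was higher in the *Thada*-activated library, but the gene did not pass the test in any fit. With the block, the log2 fold change was 0.23 (adjusted p = 0.313 in edgeR). In all, 10 of the 23 genes with a mean of 1 CPM or more were higher in every pair, where this held for 20.8% of the 12089 genes with a mean of 1 CPM or more, and 4 were lower in every pair (12.2% of those genes). *Lad1* was the 1 of the 23 with every *Thada*-activated library above every control library (3.58% of those genes), and 0 had the opposite order (1.72%). Of the 34 genes under 1 CPM, 3 had every *Thada*-activated library above every control library (2.99% of the 4551 genes in the files under 1 CPM) and 0 had the opposite order (2.18%). *Cldn3*, an epithelial claudin, had 12, 12 and 11 counts in control and 21, 18 and 16 counts after activation. *Cdh10*, a type II cadherin, had 8, 13 and 13 counts in control and 14, 18 and 22 counts after activation. Their adjusted p in the blocked edgeR fit was 0.535 and 0.53. The connexin gene *Gja10* had 1 count in each control library and 3 counts in each *Thada*-activated library, which is at or under the floor, and was not tested there.

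Duct cells also carry epithelial junctions. Of 7 listed duct markers 6 are in the files and 5 were tested. Summed over the list, CPM was 165, 171 and 86.4 for control and 199.6, 201 and 114 for *Thada*-activated cells, mostly from *Krt7*. None was called with all 6 libraries (*Krt7*, blocked log2 fold change 0.32, adjusted p = 0.0651 in edgeR). *Krt19* had 9, 9 and 6 counts in control and 42, 26 and 18 counts after activation. It reached the minimum of the filter only in the *Thada*-activated libraries, where it was high, so its tests between conditions, of which the one without both replicate 3 libraries called it, are not used. Their part in the difference in *Lad1* was not tested.

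Replicate 3 differed from replicates 1 and 2 in far more junction genes than the conditions did. With the condition as a term, edgeR called 6 of the 27 tested junction genes higher in replicate 3 (15.7% of all tested genes) and 6 lower (15.4%). The 6 lower include *Cldn14*, which reached the minimum of the filter only in replicates 1 and 2, where it was high. That call is counted here but is not used for *Cldn14*. This split of the libraries was made because they were already known to stand apart, so its p-values describe the size of a difference against the spread and add no independent evidence. Without a fold threshold, a count chosen after seeing the data, 19 of the 27 passed, beside 68.6% of all genes. Of the 23 genes with a mean of 1 CPM or more, 11 had both replicate 3 libraries above the other 4 (37% of the 12089 genes) and 8 had them below (35.9%). Both shares are large in the whole transcriptome, and the counts of junction genes are read against them.

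*Cdh1* (chromosome 8, 106603351 to 106670246, plus strand) was higher in replicate 3. Control libraries had 4.86, 4.37 and 16.5 CPM, and *Thada*-activated libraries 6.83, 6.27 and 19.6 CPM. Both replicate 3 libraries were far above the other 4, and within each number the *Thada*-activated library was the higher one. The log2 fold change of replicate 3 was 1.69 (standard error 0.11, adjusted p = 1.26e-08 in edgeR), against 0.36 (standard error 0.12, adjusted p = 0.329) between conditions with the block. *Cdh11*, a cadherin of mesenchymal cells, had 7.47, 8.25 and 24.6 CPM in control libraries and 8.46, 7.70 and 19.4 CPM after activation (log2 fold change 1.45, adjusted p = 4.22e-08 in edgeR). *Epcam* (0.88, adjusted p = 0.00101), *Cdh18* (0.93, adjusted p = 2.15e-06), *Cdh6* (0.87, adjusted p = 8.67e-06) and *Cdh7* (1.86, adjusted p = 0.000494) were also called higher in edgeR. *Cdh7* had 2 to 35 counts per library, so its fold is imprecise.

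*Gjd2* (chromosome 2, 114009601 to 114013619, minus strand) was lower in replicate 3. Control libraries had 64.1, 65.8 and 20.1 CPM, and *Thada*-activated libraries 72.1, 70.4 and 29.8 CPM. The replicate 3 libraries lay below the other 4 and were 2.77-fold lower (log2 fold change -1.47, standard error 0.09, adjusted p = 3.46e-09 in edgeR). The interaction of condition and replicate 3 was estimated at a log2 value of 0.40 (adjusted p = 0.0488 in edgeR). Replicate 3 has 1 library per condition, so this was not replicated and its spread comes from replicates 1 and 2. *Gjd2* was the 1 of 27 junction genes with an adjusted p under 0.05 for it, a share under the 6.96% of all tested genes, so it is no result about the junction genes. That call was lost without *Thada*-activated replicate 1 (adjusted p = 0.137) or 2 (adjusted p = 0.194) and with DESeq2 (adjusted p = 0.42). *Cldn14* had 51, 35 and 3 counts for control and 34, 26 and 1 counts after activation, so that its replicate 3 libraries were at or under the floor. Its call with the filter is not used, and without the filter edgeR also called it lower (adjusted p = 1.398e-08). DESeq2 called it lower too (adjusted p = 1.323e-06). DESeq2 keeps genes by mean count, which for *Cldn14* came mostly from replicates 1 and 2, so that call is not used. *Tjp1* had 136, 134 and 70.8 CPM in control libraries and 136, 139 and 82.7 CPM after activation. *Tjp1* and the classical cadherin *Cdh4* fell by 0.84 and 0.85 on the log2 scale in replicate 3 (adjusted p = 2.52e-08 and 5.08e-08 in edgeR). *Cdh24* (-0.66, adjusted p = 0.000142) was also called lower. *Cldn10* had 0, 2 and 13 counts in control and 1, 0 and 19 counts after activation, and *Cdh17* had 8, 5 and 13 counts in control and 5, 6 and 33 counts after activation. Neither was tested by edgeR with all 6 libraries, because the filter asks for 3 libraries above its minimum. Both were called higher in replicate 3 by edgeR without the filter (adjusted p = 9.3e-06 and 0.000397). DESeq2 also called both (adjusted p = 0.000641 and 0.0131). It keeps genes by mean count, which for both came mostly from replicate 3, so its calls are not used. With 1 library of replicate 1 or 2 left out both genes pass the filter only through the replicate 3 libraries, where they are high, so their calls in those fits are not used. *Cldn2*, with 3 counts in each replicate 3 library and 7 to 10 in the others, was called lower only without the filter (adjusted p = 0.0456 in edgeR).

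**Figure D2:**
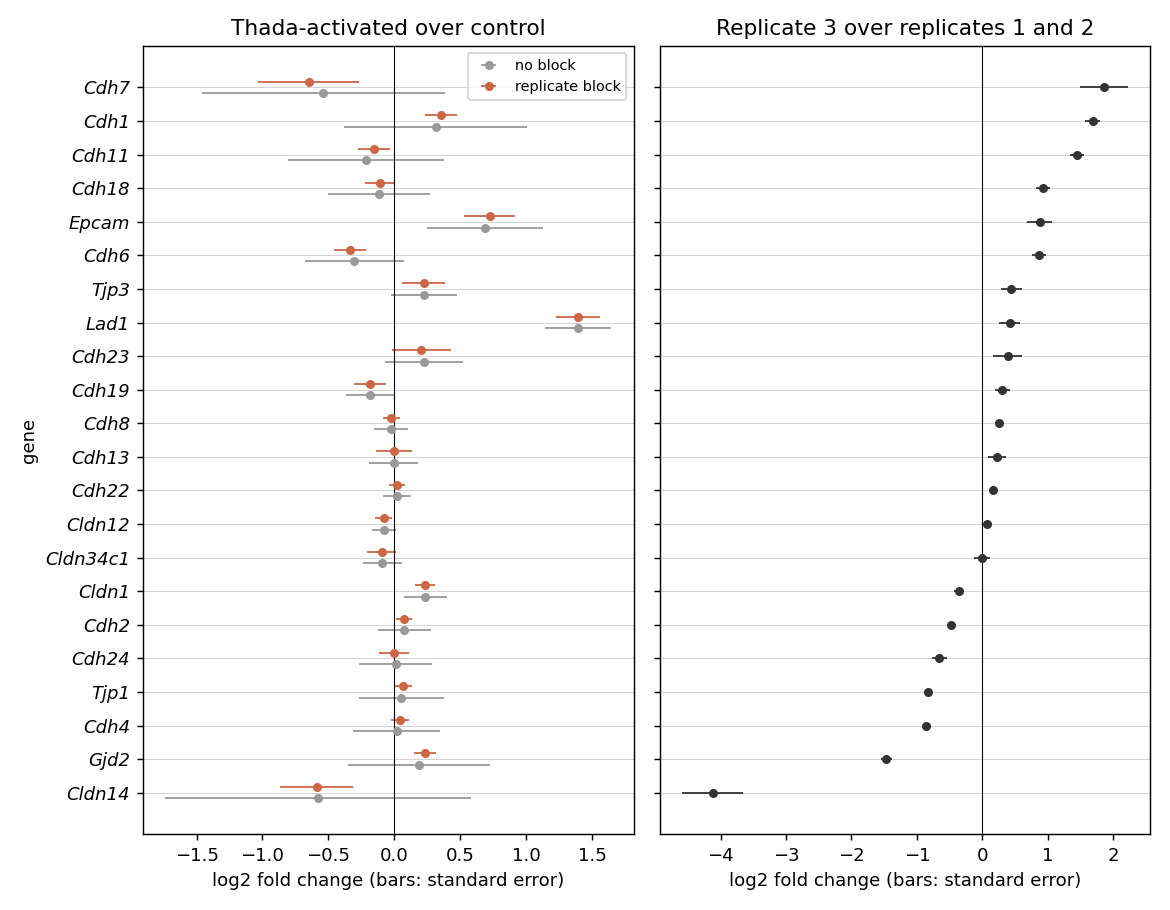
Log2 fold changes with standard errors for 22 junction genes with a mean of 1 CPM or more, *Thada*-activated over control at the left (without and with the replicate block) and replicate 3 over replicates 1 and 2 at the right, both from edgeR. *Lad1* lies at 1.40 at the left, and *Cdh1* (1.69) and *Gjd2* (-1.47) lie on opposite sides of 0 at the right. The lowest point at the right, *Cldn14*, rests on replicate 3 counts at or under the floor, so its size is not read.

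Partner lists cover adherens and tight junctions, desmosomes, pannexins and connexin partners, basement membrane anchors, Epcam partners, epithelial regulators and other islet cell adhesion. The 82 tested partner genes gave 0 calls between conditions without or with the block. In replicate 3, 13 were called higher (15.7% of all tested genes were) and 8 lower (15.4% were). Of 16 adherens junction partners, led by *Ctnnb1* (β-catenin) and *Jup* (plakoglobin), 3 were higher and 1 lower. *Nectin1* (log2 fold change 0.83, adjusted p = 1.09e-07 in edgeR), *Nectin4* (0.79) and *Cdhr2* (1.68) were higher and *Cdhr1* (-0.60) was lower. Of 28 tight junction partners, led by *Ybx3* and *Sympk*, *F11r* (JAM-A, 0.64), *Mpp5* (0.79) and *Prkcz* (0.71) were higher, and *Jam3* (-0.63) and the polarity gene *Pard3* (-1.12) were lower. Of 4 desmosome genes, led by *Pkp4* and *Dsg2*, *Dsc2* (0.94) was higher.

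Both tested genes of the list of pannexins and connexin partners, *Cnst* (consortin, -0.87) and *Panx1* (pannexin 1, -0.76), were called lower in replicate 3, where 15.4% of all tested genes were. Of 4 basement membrane anchors, led by *Cd151* and *Dst*, *Dst* (-0.61) and *Plec* (plectin, -1.03) were lower. Of 10 Epcam partners, led by *Cd82* and *Spint2*, *Cd82* (1.35) and *Spint2* (a serine protease inhibitor, 1.25) were higher and *Psen2* (presenilin 2, -0.75) was lower. Of 8 epithelial regulators, led by *Zeb1* and *Snai2*, the splicing regulator *Esrp2* (2.45, adjusted p = 8.11e-07 in edgeR) and the repressor *Rest* (1.26, adjusted p = 0.000832) were higher. Of 10 other adhesion genes, led by *Cadm1* and *Ncam1*, *L1cam* (0.91) and *Nlgn2* (0.96) were higher. A call that changed in replicate 3 with a library left out is given here with its log2 fold change in that edgeR fit. Without control replicate 3, *Panx1* (-0.54), *Cdhr1* (-0.48), *Dst* (-0.46), *F11r* (0.54) and *Jam3* (-0.42) were no longer called, and *Jup* (-0.59) and *Perp* (0.77) were. *Cdhr1* was also not called without control replicate 2 (-0.57) or without the condition as a term (-0.58). Further calls were *Crb3* without control replicate 2 (0.61) or *Thada*-activated replicate 2 (0.59), *Pard6a* without *Thada*-activated replicate 2 (0.65) or 3 (0.87), and *Amotl2* (0.72), *Ctnna1* (-0.65) and *Zeb2* (0.60) without *Thada*-activated replicate 3. The median log2 fold change of replicate 3 was 0.08 over the 82 partner genes, 0.22 over the 27 junction genes and 0.00 over all tested genes.

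Some markers of cell types were called in replicate 3 as well, where 15.7% of all tested genes were called higher and 15.4% lower. The calls of markers are read against these shares. β-cell markers summed to 110253 to 139784 CPM per library, led by *Ins2*, and of 11 tested genes *Ins1* was called higher and *Mafa*, *Pdx1*, *Slc30a8* and *Ucn3* lower in replicate 3. Of 5 tested duct markers, *Krt7* (log2 fold change -0.99) and *Krt19* (-0.83) were called lower there, 0 were called higher and 2 had a log2 fold change above 0. Of 4 other islet endocrine markers, *Ppy* was called higher and *Sst*, the most abundant, lower. Fibroblast markers summed to 2.80 to 6.50 CPM. Of 2 tested, *Col1a1*, the most abundant, was called higher and *Col1a2* was not called (log2 fold change -0.21, adjusted p = 0.503 in edgeR). Endothelial markers summed to 12.7 to 16.4 CPM, mostly *Esam*, with *Cdh5* at 0 in 5 libraries. Immune markers summed to 0.641 to 1.79 CPM, led by *Cd68* with 7 to 22 counts per library, which was called lower (log2 fold change -1.001, adjusted p = 0.0334 in edgeR), and the 1 acinar marker in the files, *Ctrb1*, was at 0 in 5 libraries and at 0.0579 CPM in control replicate 1. Some of these calls changed with a library left out. *Krt19* was not called without control replicate 1 (-0.85) or 2 (-0.85) or *Thada*-activated replicate 1 (-0.57) or 3 (-0.60). *Cd68* was not without control replicate 1 (-0.82) or 3 (-0.95) or *Thada*-activated replicate 1 (-0.925) or 3 (-1.06). DESeq2 called neither of these genes, and *Krt19* was also not called without the filter or without the condition as a term. *Mafa* was not called without *Thada*-activated replicate 2 (-0.57) or 3 (-0.38), and *Ppy* was not without *Thada*-activated replicate 3 (0.57). Calls were gained by *Iapp* without *Thada*-activated replicate 1, 2 or 3 (-0.61, -0.62 and -0.79) and by *Ins2* without *Thada*-activated replicate 1 or 3 (0.598 and 0.77). *Muc1* was called without control replicate 3 (0.89), *Irx2* without *Thada*-activated replicate 2 (0.59) and *Gcg* without *Thada*-activated replicate 3 (-0.59). *Pecam1* and *Dcn*, an endothelial and a fibroblast marker, reached the minimum of the filter only in the replicate 3 libraries, and their calls with a library left out are not used. Without the filter edgeR called both higher (adjusted p = 0.00101 and 0.00674), and DESeq2 called *Pecam1* but not *Dcn* (adjusted p = 0.0229 and 0.0635). The mean counts by which DESeq2 keeps genes came mostly from replicate 3 for *Pecam1*, so that call is not used. Whether cell composition had a part in the replicate 3 differences was not tested.

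Promoter sequence is shown for *Lad1*, which differed between conditions in the blocked fit, and for *Gjd2* and *Epcam*, which differed in opposite directions in replicate 3. RefSeq windows of GRCm38.p6 matched 40 of the 57 junction genes. The 250 bases before each start are given 5′ to 3′, with capitals marking the E-box CAGGTG or its reverse complement CACCTG, the letters bound by zinc finger repressors such as Zeb1. The motif is in 17.2% of 32851 such windows. It occurs 0 times in *Lad1* (chr1:135818348-135818597, plus strand), 1 time in *Gjd2* (chr2:114013620-114013869, minus strand) and 2 times in *Epcam* (chr17:87635729-87635978, plus strand). The windows are 57.6%, 74.0% and 56.4% G and C, against a median of 52.4% over all windows. A match describes letters only.
*Lad1*: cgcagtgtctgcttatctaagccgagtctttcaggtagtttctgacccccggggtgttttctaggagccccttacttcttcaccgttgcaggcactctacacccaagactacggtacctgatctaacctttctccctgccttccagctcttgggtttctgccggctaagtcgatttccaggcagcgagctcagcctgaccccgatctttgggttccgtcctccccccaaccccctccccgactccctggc
*Gjd2*: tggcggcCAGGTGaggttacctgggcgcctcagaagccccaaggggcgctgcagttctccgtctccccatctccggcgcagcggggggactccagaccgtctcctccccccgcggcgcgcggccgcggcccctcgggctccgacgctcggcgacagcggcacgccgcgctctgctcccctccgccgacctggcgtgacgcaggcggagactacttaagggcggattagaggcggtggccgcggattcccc
*Epcam*: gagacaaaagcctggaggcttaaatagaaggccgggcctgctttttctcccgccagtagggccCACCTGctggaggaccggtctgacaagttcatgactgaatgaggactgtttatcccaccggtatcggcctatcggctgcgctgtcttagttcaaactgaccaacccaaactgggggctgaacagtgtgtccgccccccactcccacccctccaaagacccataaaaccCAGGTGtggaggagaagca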

How the data were processed

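RNA of both kinds of MIN6 cells was sequenced with a BGISEQ-500 instrument. Deposited by the authors were 1 estimated count per gene and library, not normalized, and FPKM values, which the authors scaled by gene length and library. The submitters' processing notes name Bowtie2, RSEM, DESeq2 and GRCm38, without versions or roles. The authors' fold changes, p-values and q-values were not used. Estimated counts were rounded and CPM computed from library totals. In R 4.3.3, edgeR 4.0.16 (filterByExpr, TMM, robust quasi-likelihood test) was run over all genes, with Benjamini-Hochberg adjusted p under 0.05 and fold over 1.5 as the call. DESeq2 1.42.0, other scaling, no filter, left-out libraries and the replicate block were alternatives. The fit without both replicate 3 libraries, counts without a fold threshold for replicate 3 and for all genes, and the count of genes under 1 CPM that did not overlap between conditions (3, also with CPM by TMM-scaled library size) were added after the data were seen. The tests were tried on simulated data of a fixed spread, whose outcome is not used here as support for any result. Coordinates are from GENCODE M21 (GRCm38).

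Genes of a mean of 1 CPM or more are named, except that the values of 1 gene are not reported here. Of partner lists, called genes and the 2 of highest mean FPKM are named, and of marker lists the most abundant. Some further genes of low level or in partner or marker lists were named after their values were seen. Members and lists were chosen with earlier results of these data known.

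Replicate numbers come from the sample titles. Libraries with the same number were taken as pairs and as the block. Deviations from the condition means correlated across genes at 0.77, 0.76 and 0.90 for the same numbers 1, 2 and 3. Crossing 1 and 2 gave 0.80 and 0.79, so these numbers are not told apart. With replicate 3 apart in both conditions, replicates 1 and 2 deviate together from the means. The correlations therefore set replicate 3 apart but cannot show that numbers 1 and 2 pair libraries. No libraries of a condition agreed within sampling noise (chi-square per degree of freedom 1.81 to 127).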

Additional observations from a re-analysis of the deposited data

Results flagged for a closer look

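The difference between conditions in *Gjd2* was estimated as larger in replicate 3, where each condition has 1 library, than in replicates 1 and 2. In replicate 3 the control library had 20.1 CPM, against 29.8 CPM after activation. The values were 64.1 against 72.1 CPM in replicate 1 and 65.8 against 70.4 CPM in replicate 2. The interaction of condition and replicate 3 had a log2 value of 0.40 (standard error 0.13, adjusted p = 0.0488 in edgeR), and *Gjd2* was the 1 of 27 junction genes with an adjusted p under 0.05, a share under the 6.96% of all tested genes, so it is no result about the junction genes. The lone libraries of replicate 3 are assumed to vary like the others, so the difference was not replicated. The adjusted p was 0.137 without *Thada*-activated replicate 1, 0.194 without *Thada*-activated replicate 2 and 0.42 with DESeq2, so the call rests on those libraries and on the tool. It ranged from 0.0178 to 0.42 over the alternatives.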

How the results depend on the processing

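Between conditions, the 0 junction genes and 0 genes in all called by edgeR stayed at 0 with DESeq2 size factors, no filter and each library left out in turn, and 0 partner genes were called in any fit. DESeq2 called 1 junction gene and 5 genes in all. The replicate block gave 1 and 19, with DESeq2 1 and 18, and without a fold threshold 1 and 28. Leaving both libraries of replicate 1, 2 or 3 out of the blocked fit gave 1, 1 and 2 junction genes and 43, 18 and 70 genes in all, and leaving out both replicate 3 libraries without the block gave 2 and 68. The block also gave the call of *Thada*. For replicate 3 against 1 and 2, the 12 junction genes, 21 partner genes and 3893 genes in all became 19, 55 and 8592 without a fold threshold, and stayed within 1.5 times of their value otherwise. The 12 and the 19 junction genes include *Cldn14*, whose call with the filter is not used. *Cdh23* was also called without control replicate 3 (0.78), *Cldn10* and *Cdh17* with no filter or with DESeq2, whose calls of them are not used, and *Cldn2* with no filter. *Cdh24* was not called without *Thada*-activated replicate 3 (-0.54). The interaction call was 0 with DESeq2, 2 without the filter and from 0 to 3 with single libraries left out. Log2 fold changes between conditions that changed sign with a library left out ran from -1.15 to 0.068 for *Cldn14*, -0.029 to 0.087 for *Cdh22*, -0.41 to 1.21 for *Cdh1*, -0.75 to 0.57 for *Cdh11*, -0.49 to 0.28 for *Cdh18*, -0.19 to 0.26 for *Tjp1*, -0.15 to 0.23 for *Cdh24*, -0.19 to 0.50 for *Gjd2*, -0.061 to 0.22 for *Cdh2*, -0.079 to 0.12 for *Cdh13*, -0.094 to 0.084 for *Cdh8*, -2.07 to 0.028 for *Cdh7*, -0.24 to 0.23 for *Cdh4*, -0.18 to 0.00055 for *Cldn34c1* and -0.085 to 0.37 for *Cdh23*. For replicate 3 they ran from -0.0901 to 0.064 for *Cldn34c1* and -0.084 to 0.78 for *Cdh23*. *Cdh24* also changed sign with the replicate block (-0.0017; -0.012 with DESeq2), and without both libraries of replicate 1 or 2 in it (-0.026, -0.0604), as did *Cdh13* (0.0024) and *Cdh22* (-0.00091). Without both replicate 3 libraries, with or without the block, it changed for *Cdh11* (0.031), *Cdh23* (-0.11), *Cdh13* (0.077 with the block, 0.078 without), *Cdh8* (0.017) and *Cdh4* (-0.0304 and -0.0308). Of the values in these ranges and of those that changed sign, only 0.78 for *Cdh23* in replicate 3 was called. The cause was not tested. A count of 1 corresponds to 0.0564 to 0.0583 CPM, so genes under 1 CPM rest on few reads, and differences in them were not detectable at this depth unless large.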
